A study of Mus musculus with 39 samples.

Results

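The interferon response was followed through 41 genes in mouse liver: pattern-recognition sensors of nucleic acid, the factors that carry the interferon signal, antiviral effectors, interferon-inducible GTPases, immunoproteasome subunits and the PARP9-DTX3L group. A gene was read through the array probe sets annotated to its symbol alone, and where several existed, through the one with the highest mean. Of the 41 genes, 39 had such a probe set, out of 18193 genes on the array; Isg15 and Ifi44 had none and have no values here. A gene was tested if its signal exceeded the array's median on at least 4 arrays, which 12580 genes did, among them 37 of the 41. Mx1 and Oas3 stayed below that line and are described separately. Of the 37, 35 exceeded the median on every array, while Ifit2 and Oasl2 did so on 23 and 20 arrays, mostly at days 1 and 7, so a fall over time was built into how those 2 entered the test.

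The arrays measured total RNA from whole liver of male B6C3F1/Crl mice, the offspring of a cross between C57BL/6 and C3H/He parents, that arrived at 29 to 32 days of age and acclimatised for 5 days. Phenobarbital, a barbiturate that induces drug-metabolising enzymes in liver through the receptor CAR, was given at 0.05% (w/v) in the drinking water; control animals are labelled only as control. Livers were taken after 1, 7, 28 or 91 days, with 5 arrays in each of the 8 groups except the day 1 controls, which have 4. The treatment text names an administration of 28 days, whereas the sample labels carry a duration of 91 days for the last groups; the labels were followed. They do not say that each array is a separate animal, so the p-values measure the spread between these arrays, which may be partly technical. Mice at later days were also older, so time, age and any difference between runs of different days cannot be told apart.

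Interferons are secreted proteins that cells release after sensing foreign or misplaced nucleic acid. Type I interferon acts on genes that carry the interferon-stimulated response element (ISRE), to which IRF9 directs its transcription complex, and interferon gamma acts on genes that carry the gamma-activated site (GAS). The genes they switch on block virus replication, attack pathogen vacuoles and raise peptide presentation. In liver, hepatocytes, Kupffer cells and endothelial cells all express such genes at a basal level.

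The deposited values are log2 signals, and all levels and differences below are on that log2 scale, where 1 unit is a doubling. Array medians lay between 5.69 and 5.80, so the arrays had been brought to a common scale. The number of arrays limits the precision. Array numbers within a group follow the order of the samples and serve as names only. Cyp2b10, the CAR target that marks phenobarbital exposure, was higher in treated livers by 6.21 (SE 0.22, adjusted p = 1.33e-21) at day 1, 6.36 (SE 0.21, adjusted p = 7.82e-23) at day 7, 6.90 (SE 0.21, adjusted p = 4.78e-24) at day 28 and 5.64 (SE 0.21, adjusted p = 2.32e-21) at day 91, as the treatment labels have it. Hepatocyte markers averaged 14.36 to 14.54 on every array. Array 3 of the day 7 phenobarbital group stood apart: its neutrophil marker mean was 9.43 against 5.58 to 5.90 on the other 4 arrays of that group, and its Kupffer cell marker mean was 10.74 against 9.16 to 9.70. Array 4 of the day 7 controls had a neutrophil mean of 7.77, the next highest of all arrays. Array 3 of the day 1 phenobarbital group had an exocrine pancreas marker mean of 11.15, against 7.00 to 7.16 on the other day 1 arrays. The hybridisation spike-ins (bio and cre probe sets) averaged 10.76 to 10.97 on the day 7 phenobarbital arrays and 9.58 to 10.27 on the day 7 controls. In whole tissue, fewer cells of a type and less RNA per cell cannot be told apart.

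The DNA ahead of some of these genes carries motifs that interferon-activated factors bind. The 250 bases before each annotated start (RefSeq, GRCm38.p6) were searched on both strands for GAAANNGAAA, an ISRE core whose other strand reads TTTCNNTTTC, and for TTCNNNGAA, a GAS core that reads the same on both strands. Of the 41 genes, 30 had a window. The ISRE core was found in 12 of the 30 (40.0%) and in 936 of 27025 genes with a window (3.46%). The GAS core was found in 5 of the 30 (16.7%) and in 8.13% of all genes. The ISRE core was present in 4 of 4 GTPase genes with a window and 5 of 10 antiviral effectors, and in 0 of 4 immunoproteasome and peptide transport genes. A match is a description of the letters, not evidence that a factor bound there. Cmpk2, Ifih1, Ifi35, Herc6 and Xaf1, called higher at day 7 below, had neither core in their windows. The promoters shown next are all among the 12 with an ISRE core. Shown here are 6 promoters of genes to which the day 7 results return, each 5′ to 3′ on the gene's own strand and ending at the base before the start, with ISRE cores in capitals and, in Igtp, also the GAS core. They span chr19:34640739-34640888 (plus strand), chr19:34583359-34583528 (plus), chr12:26456453-26456602 (minus), chr11:48871421-48871570 (minus), chr11:58199406-58199555 (plus) and chr3:142559894-142560043 (plus).
Ifit1: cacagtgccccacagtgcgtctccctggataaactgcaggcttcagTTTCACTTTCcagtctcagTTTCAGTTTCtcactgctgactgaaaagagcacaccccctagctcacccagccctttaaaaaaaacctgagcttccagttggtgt
Ifit3: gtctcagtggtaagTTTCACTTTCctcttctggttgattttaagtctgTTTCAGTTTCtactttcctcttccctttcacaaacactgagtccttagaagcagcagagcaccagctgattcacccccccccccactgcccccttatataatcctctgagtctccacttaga
Rsad2: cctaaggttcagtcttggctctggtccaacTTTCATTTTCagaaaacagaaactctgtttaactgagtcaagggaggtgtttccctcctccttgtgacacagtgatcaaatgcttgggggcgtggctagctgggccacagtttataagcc
Irgm1: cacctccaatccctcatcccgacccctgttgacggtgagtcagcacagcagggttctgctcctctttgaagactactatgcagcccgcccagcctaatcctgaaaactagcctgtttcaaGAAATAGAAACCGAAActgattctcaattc
Igtp: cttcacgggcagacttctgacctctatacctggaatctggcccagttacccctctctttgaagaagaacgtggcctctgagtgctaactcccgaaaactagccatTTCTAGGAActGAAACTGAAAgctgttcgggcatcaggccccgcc
Gbp3: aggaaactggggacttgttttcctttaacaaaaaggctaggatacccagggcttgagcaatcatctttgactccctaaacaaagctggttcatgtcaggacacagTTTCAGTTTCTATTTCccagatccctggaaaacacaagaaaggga
Ifit1 and Ifit3 each hold 2 separate ISRE cores, and Irgm1 and Gbp3 each hold 2 that overlap. The core nearest the start lay 85 to 76 bases upstream in Ifit1, 122 to 113 in Ifit3, 120 to 111 in Rsad2, 24 to 15 in Irgm1, 34 to 25 in Igtp and 39 to 30 in Gbp3, so the 3 GTPase genes shown carry it closer to the start than the 3 antiviral genes shown do.

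The treatment comparison asked how these genes stood in phenobarbital against control livers at each time. At day 7, 17 of the 37 tested genes were higher with phenobarbital (limma, Benjamini-Hochberg adjusted p under 0.05 over all 12580 genes), against 5.64% of all genes, and 0 were lower (11.4% of all genes). The median difference was 0.42 over the 37 and -0.05 over all genes, and 35 of the 37 differences were positive. Arrays of the 2 day 7 groups did not overlap for 8 genes, all higher with treatment (3.61% of all genes). With the spike-in mean, which differed between the day 7 groups, as a covariate, 12 genes were higher (2.79% of all genes). At the other times the calls were few, all lower at day 1 and in both directions at days 28 and 91. Day 1 had 0 higher (15.8% of all genes) and 4 lower (16.7%), day 28 had 2 higher (11.2%) and 5 lower (18.1%), and day 91 had 3 higher (4.62%) and 1 lower (16.1%). Medians over the 37 at those times were -0.13, 0.01 and 0.06, beside 0.01, -0.02 and -0.07 over all genes.

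**Figure D1:**
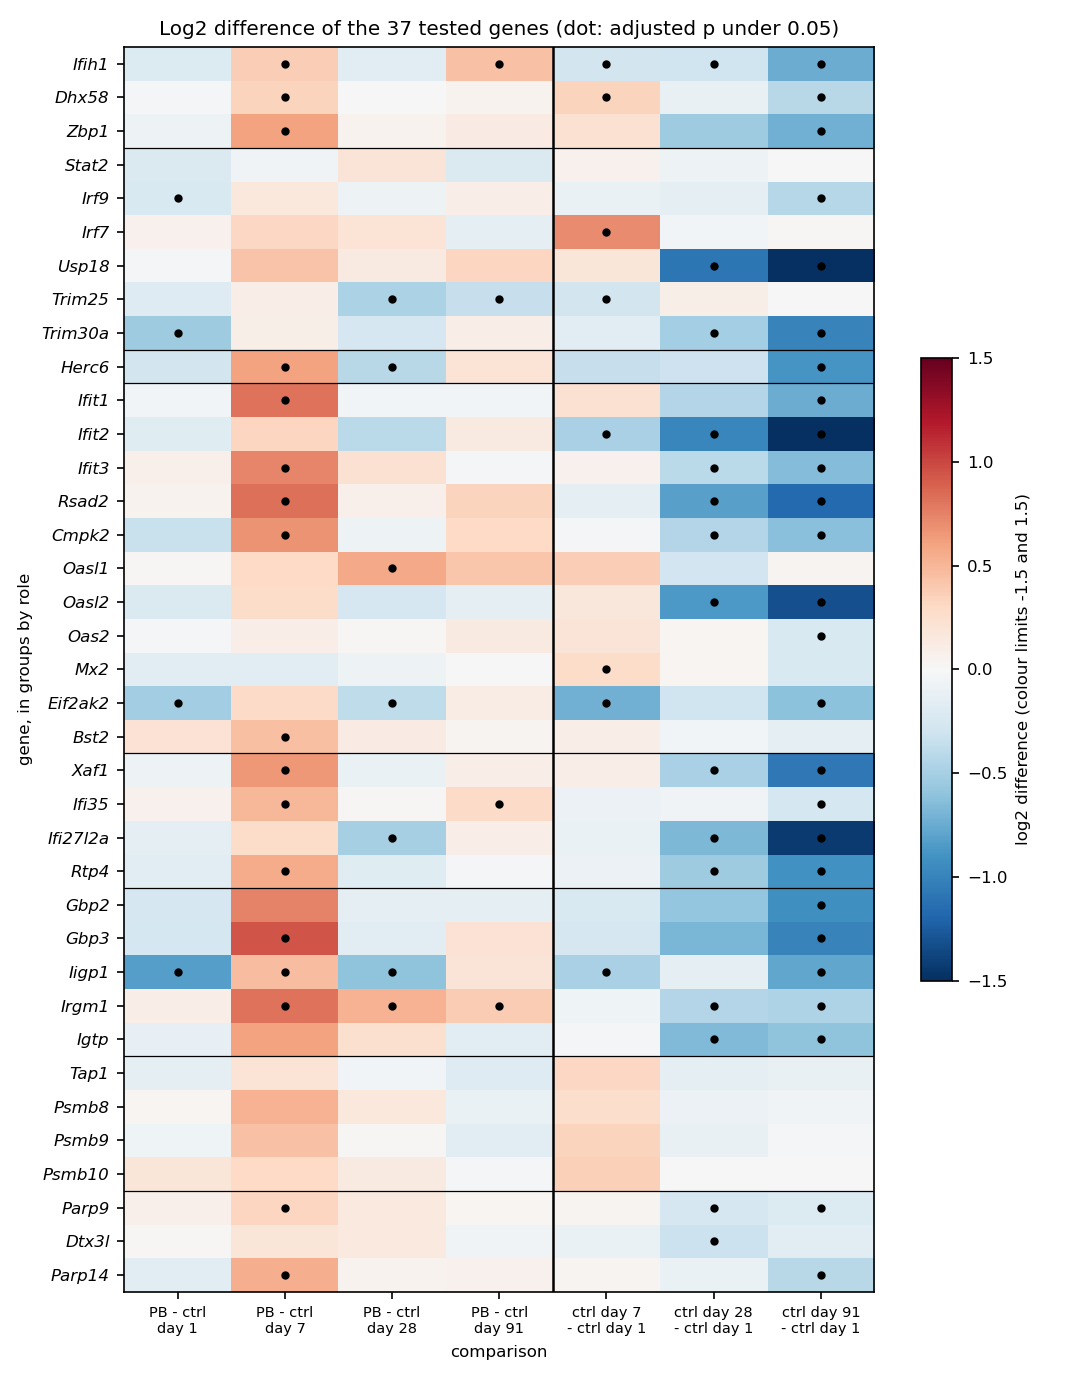
Log2 differences (colour) of the 37 tested interferon response genes, in rows grouped by role, for phenobarbital minus control at 4 times and for controls of later days minus day 1 controls; a dot marks an adjusted p under 0.05 and colours saturate beyond 1.5 in either direction. The day 7 treatment column holds 17 dots, all for higher signal, and the last column holds 26, all for lower signal.

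Rsad2, Ifit1, Cmpk2 and Ifit3, all antiviral effectors, had the 4 largest day 7 differences of the 37 genes once array 3 was left out. Ifit1 encodes a protein that binds viral RNA lacking host cap methylation. Its signals in the day 7 controls were 8.26, 8.45, 8.44, 7.88 and 7.66, and in the phenobarbital arrays 8.52, 9.18, 8.58, 9.43 and 9.06. Every treated array lay above every control array, a difference of 0.82 (SE 0.17, adjusted p = 0.00107) or 1.76-fold. Rsad2, also called viperin, makes an antiviral nucleotide analogue. Day 7 control arrays read 9.54, 9.60, 9.72, 9.36 and 9.46 for Rsad2, and the treated arrays 10.08, 10.40, 9.80, 10.88 and 10.65. Again the groups did not overlap, and the difference was 0.83 (SE 0.18, adjusted p = 0.00165). Cmpk2, a mitochondrial nucleotide kinase encoded next to Rsad2, measured 7.80, 7.96, 7.89, 7.25 and 7.51 in controls and 8.15, 8.40, 8.09, 8.46 and 8.69 with phenobarbital. The Cmpk2 groups were likewise separate, with a difference of 0.68 (SE 0.15, adjusted p = 0.00185). In these 3 genes array 3 was the lowest or the next to lowest treated array, so the higher mean rested on the other 4.

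Ifit3, a partner of Ifit1 in RNA binding, had control signals of 8.32, 8.45, 8.71, 8.15 and 8.31 and treated signals of 8.65, 9.14, 9.33, 9.21 and 9.26 at day 7. All but array 1 of the treated group exceeded every control, and the difference was 0.73 (SE 0.12, adjusted p = 5.05e-05). Bst2 (tetherin), which holds budding virions at the cell surface, read 11.25, 10.99, 11.29, 11.10 and 11.25 in controls and 11.45, 11.49, 12.06, 11.59 and 11.54 in treated arrays. Its difference was 0.45 (SE 0.09, adjusted p = 0.000409) with no overlap of arrays. The other tested effectors did not pass at day 7. Ifit2, a further RNA-binding family member, differed by 0.33 (adjusted p = 0.181). Among the oligoadenylate synthetase family, which senses double-stranded RNA, Oas2 differed by 0.10 (adjusted p = 0.399), Oasl1 by 0.30 (adjusted p = 0.254) and Oasl2 by 0.28 (adjusted p = 0.391). Oasl2 changed sign without array 3, to -0.07 (adjusted p = 0.789). Eif2ak2, the kinase PKR that stops translation on double-stranded RNA, differed by 0.29 (adjusted p = 0.173). Mx2, a dynamin-like antiviral GTPase, differed by -0.17 (adjusted p = 0.238). So 5 of the 11 tested effectors rose (5.64% of all genes), and the median difference over all 11 was 0.33.

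**Figure D2:**
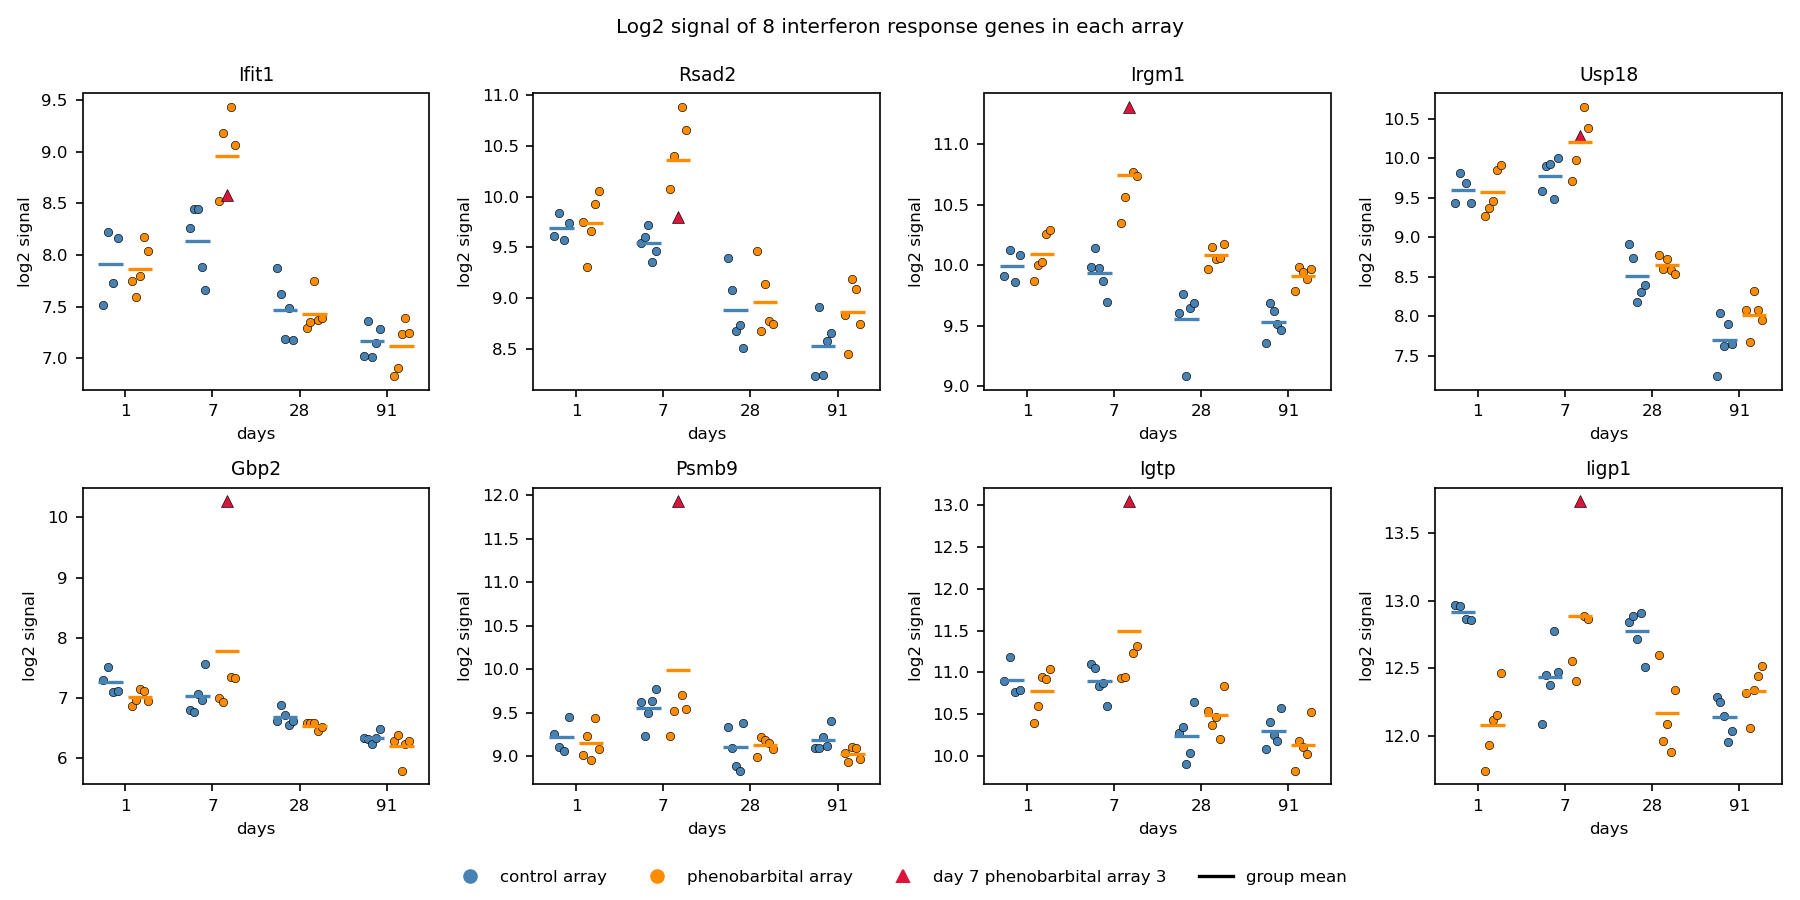
Log2 signal (vertical axis) of 8 genes on each array by day (horizontal axis), controls in blue and phenobarbital in orange, with group means as bars and the array labelled day 7 phenobarbital array 3 as a red triangle. In Ifit1 and Rsad2 that array sits low among the treated arrays of day 7, while in Gbp2, Psmb9 and Igtp it sits far above the other arrays.

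The interferon-inducible GTPases attack the vacuoles in which intracellular pathogens live. Irgm1, a regulator of that family, had control signals of 9.99, 10.14, 9.98, 9.87 and 9.69 and treated signals of 10.35, 10.56, 11.31, 10.77 and 10.74 at day 7. The groups were separate and the difference was 0.81 (SE 0.12, adjusted p = 9.12e-06), the smallest adjusted p of the 37 genes at that time. Gbp3, a guanylate-binding protein, read 7.71, 7.80, 8.03, 7.72 and 8.41 in controls and 8.18, 8.06, 10.62, 8.76 and 8.78 with phenobarbital. Treated array 3 stood far above the rest, and treated arrays 1 and 2 overlapped the controls. The Gbp3 difference of 0.95 (SE 0.25, adjusted p = 0.00723) became 0.51 (adjusted p = 0.0131) without array 3. Gbp2, of the same family, read 6.80, 6.77, 7.07, 6.96 and 7.57 in controls and 6.997, 6.94, 10.27, 7.35 and 7.32 in treated arrays. Apart from array 3, the treated Gbp2 values lay within the control range, and the difference of 0.74 (SE 0.32, adjusted p = 0.103) became 0.12 (adjusted p = 0.549) without it. Igtp (Irgm3), which acts with Irgm1, read 11.10, 11.06, 10.83, 10.87 and 10.60 in controls and 10.94, 10.94, 13.05, 11.23 and 11.31 in treated arrays, where array 3 alone stood apart. The Igtp difference was 0.60 (SE 0.23, adjusted p = 0.0672) with that array and 0.21 (adjusted p = 0.344) without it. Iigp1 (Irga6), an effector of the family, passed at 0.46 (SE 0.16, adjusted p = 0.0447) and no longer did without array 3, at 0.25 (adjusted p = 0.213), nor without any of 6 other arrays of that day (adjusted p up to 0.139). The median over the 5 GTPases was 0.74 with array 3 and 0.25 without it.

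Immunoproteasome subunits replace the constitutive catalytic subunits and change which peptides are cut for presentation, and Tap1 carries those peptides into the endoplasmic reticulum. None of the 4 genes passed at day 7. Psmb9 signals were 9.62, 9.24, 9.49, 9.64 and 9.78 in controls and 9.23, 9.52, 11.93, 9.71 and 9.55 with phenobarbital. Only treated array 3 exceeded the controls. The difference of 0.44 (adjusted p = 0.246) for Psmb9 became -0.05 (adjusted p = 0.802) without that array. Psmb8 read 9.80, 9.91, 11.68, 9.94 and 9.80 and Psmb10 9.95, 10.06, 11.45, 10.13 and 10.23 in the treated arrays, again with array 3 highest. The difference for Psmb8 went from 0.53 (adjusted p = 0.0637) to 0.16 (adjusted p = 0.313), and Psmb10 from 0.30 (adjusted p = 0.172) to 0.02 (adjusted p = 0.867). Tap1 read 8.20, 8.13, 8.12, 8.14 and 8.13 in controls and 7.91, 8.02, 9.99, 7.93 and 7.88 in treated arrays. Its difference changed sign, from 0.20 (adjusted p = 0.541) to -0.21 (adjusted p = 0.0460), which passed as lower. The median of the 4 was 0.37 with and -0.01 without array 3.

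All 3 sensors passed at day 7. Ifih1 (MDA5), the cytosolic sensor of long double-stranded RNA, had controls of 9.41, 9.51, 9.68, 9.60 and 9.95 and treated arrays of 10.001, 9.82, 10.13, 10.06 and 9.98. Control array 5 reached into the treated range, and the difference was 0.37 (SE 0.10, adjusted p = 0.00743). Dhx58 (LGP2), which modulates MDA5, differed by 0.34 (adjusted p = 0.0397), with every treated array above every control. The Dhx58 call was lost when any of 6 of the 10 arrays was left out, with an adjusted p of up to 0.0995. Zbp1, a sensor of Z-form nucleic acid, differed by 0.61 (adjusted p = 0.0371) and by 0.30 (adjusted p = 0.185) without array 3; leaving out control array 2, 3 or 5 or treated array 4 also lost the call (adjusted p up to 0.117). No signalling gene passed at day 7: Irf7, the transcription factor that amplifies type I interferon, differed by 0.31 (adjusted p = 0.101), Usp18, which removes ISG15 and restrains the receptor, by 0.42 (adjusted p = 0.0633), Irf9 by 0.15 (adjusted p = 0.148) and Stat2 by -0.05 (adjusted p = 0.803). Trim25, a ubiquitin ligase that activates the sensor RIG-I, and Trim30a, a TRIM-family regulator, differed by 0.10 (adjusted p = 0.368) and 0.09 (adjusted p = 0.690). Without array 3 Trim30a stood at -0.05 (adjusted p = 0.822), also a change of sign.

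The remaining roles were mostly higher at day 7. Herc6, the ligase that attaches ISG15 in mouse, had day 7 controls of 7.14, 7.18, 7.52, 7.79 and 7.77 and treated arrays of 7.79, 7.60, 8.52, 8.14 and 8.34. Treated array 2 overlapped the controls and array 1 touched their top. Herc6 rose by 0.60 (SE 0.15, adjusted p = 0.00580); averaged over all its probe sets the difference was 0.20 with an adjusted p of 0.199, so its probe sets disagreed. Ifi35, an interferon-induced leucine-zipper protein, had controls of 10.89, 11.01, 11.003, 11.07 and 10.89 and treated arrays of 11.34, 11.31, 11.78, 11.46 and 11.46. These did not overlap, and Ifi35 differed by 0.50 (SE 0.08, adjusted p = 4.92e-05). Xaf1, a pro-apoptotic XIAP-binding protein, and Rtp4, a receptor-transport protein with antiviral activity, rose by 0.65 (adjusted p = 0.00221) and 0.56 (adjusted p = 0.00304). The Rtp4 difference became 0.35 (adjusted p = 0.00796) without array 3. Ifi27l2a, a mitochondrial interferon-inducible protein, did not pass at 0.28 (adjusted p = 0.223). Parp9, an ADP-ribosyltransferase that works with the ubiquitin ligase Dtx3l, rose by 0.32 (adjusted p = 0.00122), and Parp14, a macrodomain ADP-ribosyltransferase, by 0.55 (adjusted p = 0.000423). Dtx3l itself differed by 0.18 (adjusted p = 0.146).

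Array 3 of the day 7 phenobarbital group raised some members and not others. The mean over the 37 genes was 9.71 on that array, between 8.78 and 9.15 on the other 4, and between 8.66 and 8.81 on the day 7 controls. On it, 25 of the 37 genes reached their highest value of all 39 arrays (5.46% of all genes did). For 11 genes its signal was at least 1 unit above the mean of the other 4, led by Gbp2 at 3.11, Psmb9 at 2.43, Gbp3 at 2.18, Tap1 at 2.06 and Igtp at 1.94. Rsad2 was below the other 4 by this measure, at -0.70, as were Ifit1 at -0.47 and Cmpk2 at -0.33. Without the array, 15 genes were called higher, all among the 17, against 5.41% of all genes, and the median over the 37 was 0.26. In 8 genes the other 4 treated arrays all exceeded every control (4.84% of all genes). The antiviral effectors' median was 0.33 with and 0.34 without it. The same array held the high neutrophil and Kupffer cell marker means given above, and the part of those cells in its values was not tested. Without it, 2 of 3 neutrophil, 1 of 12 Kupffer cell (Marco) and 3 of 8 endothelial markers were lower with phenobarbital (11.2% of all genes). So were 2 of 7 stellate cell markers and 1 of 7 hepatocyte markers. Higher were 1 of 5 B cell markers and 1 of 3 plasmacytoid dendritic cell markers (5.41% of all genes). Those 3 were Cox6a2, Klk1 and Ly6d, while Siglech, Ccr9 and Pacsin1 of the same list did not pass the signal filter. The call thus does not show a change in these cells. S100a8 differed by -1.40 (adjusted p = 0.00781), S100a9 by -1.10 (adjusted p = 0.00793), Marco by -0.90 (adjusted p = 0.0195) and Ighm by 1.35 (adjusted p = 0.000645). This fit still held control array 4, whose neutrophil marker mean was 7.77 against 5.88 to 6.56 on the other day 7 controls. The lower neutrophil markers therefore rest partly on that array, and the markers were not read without it. The part of these cells in the 15 calls was not tested. With array 4 of the controls also left out, 14 genes were higher (5.10% of all genes).

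**Figure D3:**
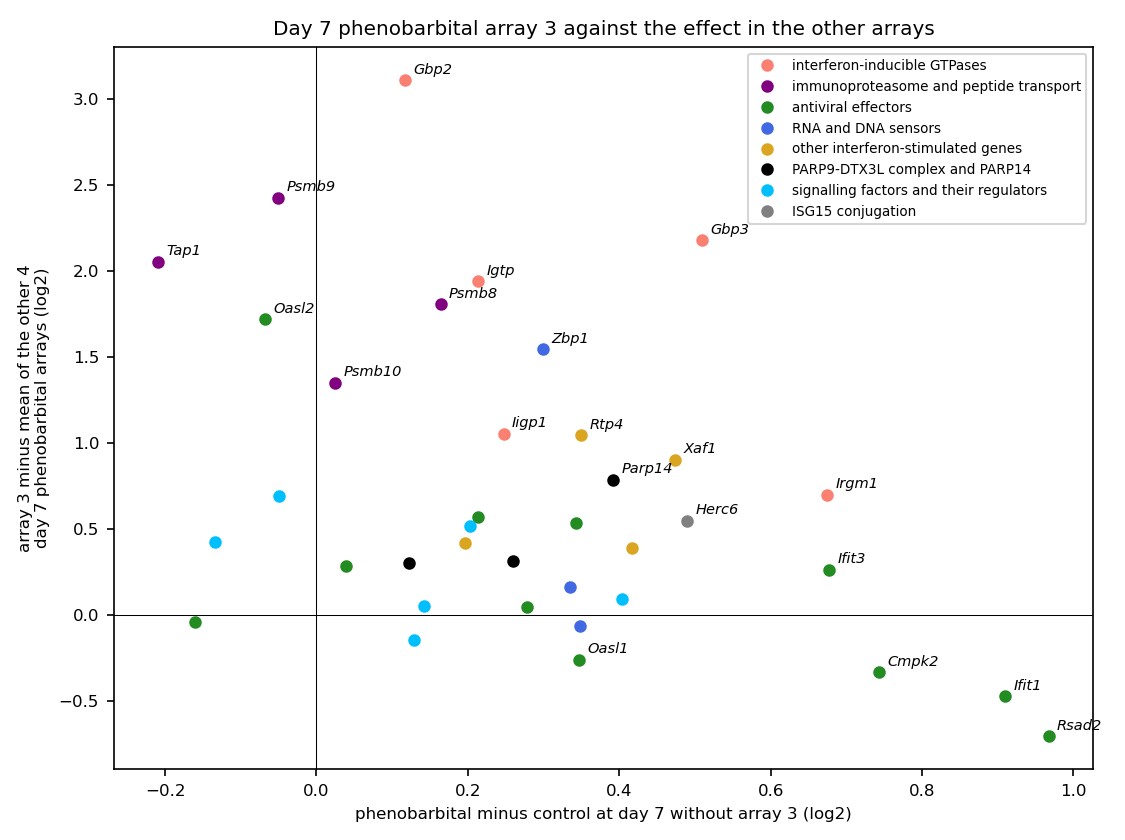
For each of the 37 genes, coloured by role, the signal of day 7 phenobarbital array 3 minus the mean of the other 4 arrays (vertical axis, log2) against the day 7 treatment difference without that array (horizontal axis, log2). Gbp2, Psmb9 and Tap1 lie high on the left, with little or no difference in the other arrays, while Rsad2, Ifit1 and Cmpk2 lie low on the right.

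**Figure D4:**
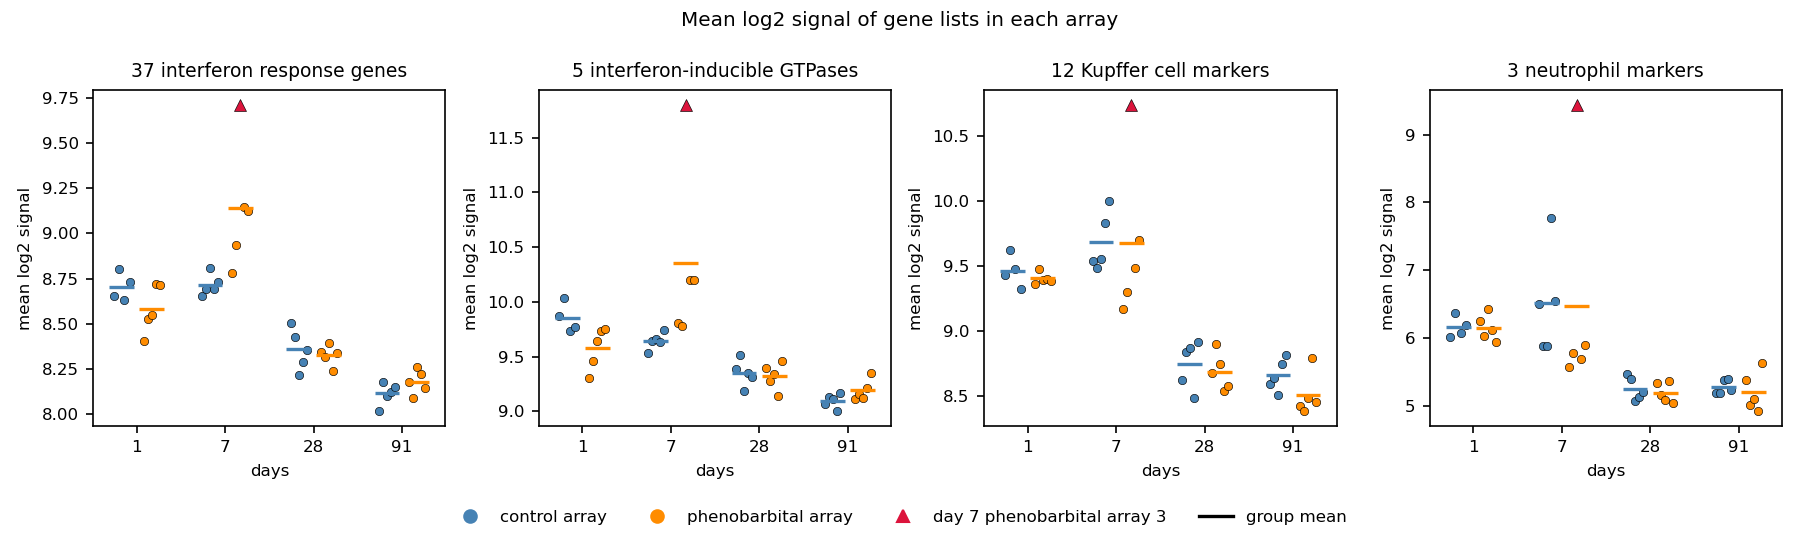
Mean log2 signal (vertical axis) on each array by day (horizontal axis) of the 37 tested genes, the 5 GTPases, 12 Kupffer cell markers and 3 neutrophil markers, controls in blue and phenobarbital in orange, with group means as bars. The red triangle, day 7 phenobarbital array 3, is the highest point in all 4 panels.

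After 1 day of phenobarbital, 4 genes were lower. Iigp1 in the day 1 controls measured 12.97, 12.96, 12.86 and 12.86, and in treated arrays 11.74, 11.93, 12.11, 12.16 and 12.47. All treated arrays lay below all controls, a difference of -0.83 (SE 0.17, adjusted p = 0.000334). Trim30a controls were at 7.04, 7.19, 6.98 and 7.02 and treated arrays at 6.43, 6.58, 6.48, 6.40 and 6.72, also without overlap, and it fell by 0.54 (adjusted p = 0.00357). Eif2ak2 differed by -0.52 (adjusted p = 0.00865) and Irf9, the DNA-binding part of the type I interferon complex, by -0.23 (adjusted p = 0.0236). The Eif2ak2 call was lost without control array 1 (adjusted p = 0.0523), and the Irf9 call without control array 4 (0.0868), treated array 1 (0.0598) or treated array 2 (0.0620). None of the 4 calls was lost without treated array 3, the array with the high exocrine pancreas marker mean. In 3 genes every treated array lay below every control (13.1% of all genes) and in 1 gene above (12.8%). Ifit1 and Rsad2, high at day 7, differed by -0.04 (adjusted p = 0.888) and 0.05 (adjusted p = 0.864) at day 1. The shares of all genes called exceeded those of the members in both directions.

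At day 28 the calls were split. The 3′ minus 5′ difference of the actin and Gapdh control probe sets was 0.52 to 0.81 in controls and 0.42 to 0.50 in treated arrays. The groups thus did not overlap in it, and with it as a covariate no member was called higher and 1 lower. The calls below are those of the main fit. Irgm1 read 9.61, 9.76, 9.08, 9.65 and 9.69 in controls and 9.97, 10.15, 10.05, 10.06 and 10.18 with phenobarbital, separate groups with a difference of 0.52 (SE 0.12, adjusted p = 0.00141). Oasl1, an inhibitor of Irf7 translation, was higher by 0.57 (SE 0.17, adjusted p = 0.0135), and this call was lost without control array 3 (adjusted p = 0.0709), leaving 1 gene called higher. Trim25 had controls of 10.96, 10.71, 10.95, 11.02 and 10.85 and treated arrays of 10.29, 10.48, 10.41, 10.52 and 10.43. These too were separate, and Trim25 differed by -0.47 (SE 0.07, adjusted p = 1.46e-05); averaged over all its probe sets the difference was -0.15 with an adjusted p of 0.0645. Iigp1 was again lower, by -0.60 (adjusted p = 0.00529), as were Ifi27l2a by -0.50 (adjusted p = 0.0145), Herc6 by -0.42 (adjusted p = 0.0358) and Eif2ak2 by -0.38 (adjusted p = 0.0445). The Herc6 and Eif2ak2 calls were each lost in several fits that left out 1 array, and 3 genes remained called lower without control array 1 or 4 or treated array 2, 4 or 5. Groups were separate in 2 genes in each direction (5.80% and 9.59% of all genes). At this time 5 of 8 liver endothelial markers were also lower with phenobarbital (18.1% of all genes). Among them Stab2, a scavenger receptor, differed by -0.39 (SE 0.08, adjusted p = 0.000625). The part of endothelial cells in the members' differences was not tested.

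At day 91, 3 genes were higher. Ifih1 read 9.29, 9.05, 9.33, 8.99 and 9.15 in controls and 9.61, 9.41, 9.73, 9.75 and 9.51 with phenobarbital, with no overlap and a difference of 0.44 (SE 0.10, adjusted p = 0.00166). Irgm1 controls were at 9.36, 9.69, 9.62, 9.52 and 9.47 and treated arrays at 9.79, 9.99, 9.94, 9.88 and 9.97. They were separate once more, with a difference of 0.38 (SE 0.12, adjusted p = 0.0217). In the main fit Irgm1 was thus the member called higher at days 7, 28 and 91 alike. Its day 28 call was lost with the 3′ minus 5′ difference as a covariate. Ifi35 differed by 0.29 (SE 0.08, adjusted p = 0.0108), and by 0.12 (adjusted p = 0.302) when probe sets marked as shared between transcripts were left out. Trim25 was lower by -0.35 (adjusted p = 0.00110), as at day 28. With the shared-transcript probe sets left out, no member was called lower at day 91. Groups were separate in 3 genes, all higher (2.54% of all genes). None of these 4 calls was lost when any 1 array was left out. The antiviral genes of day 7 did not pass: Ifit1 differed by -0.05 (adjusted p = 0.880), Ifit3 by -0.03 (adjusted p = 0.891) and Rsad2 by 0.34 (adjusted p = 0.185).

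Whether the treatment difference itself changed with time was tested in the same model. An F test over the 4 days called 18 of the 37 genes (35.1% of all genes). The smallest adjusted p belonged to Iigp1 (0.000158), lower at days 1 and 28 and higher at day 7, followed by Ifih1 (0.000376) and Trim25 (0.000517). Between day 1 and day 7 the difference rose in 17 genes (8.16% of all genes) and fell in 0 (13.1%). From day 7 to day 28 it fell in 15 genes (5.78%) and rose in 0 (5.98%). Between days 7 and 91 it fell in 2, Ifit3 and Trim25 (0.437% of all genes), and rose in 0 (0.286%). For the other genes called at day 7 a change by day 91 was not called. From day 1 to day 91 it rose in 6 genes (11.1%), namely Iigp1, Ifih1, Trim30a, Eif2ak2, Cmpk2 and Irf9, and fell in 0 (19.4%). No gene was called between days 1 and 28 (0.572% of all genes higher and 2.68% lower). From day 28 to day 91 it rose in 4 genes (9.13%), namely Ifih1, Iigp1, Herc6 and Ifi27l2a, and fell in 0 (12.5%).

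The second comparison followed the controls over time. By day 91, 26 of the 37 genes were lower than in day 1 controls (16.6% of all genes) and 0 were higher (19.7%). The median change was -0.61 over the 37 and 0.04 over all genes. In 23 genes every day 91 control lay below every day 1 control (11.1% of all genes). Usp18 showed the largest fall. Its day 1 controls measured 9.44, 9.82, 9.69 and 9.43, those of day 7 9.58, 9.90, 9.92, 9.49 and 9.999, those of day 28 8.91, 8.74, 8.18, 8.30 and 8.39 and those of day 91 7.24, 8.04, 7.63, 7.90 and 7.65. The day 7 controls overlapped those of day 1, the day 28 controls lay wholly below both, the day 91 controls lay wholly below those of day 28, and by day 91 the change was -1.90 (SE 0.17, adjusted p = 1.20e-10), a 3.73-fold fall. Ifi27l2a controls were at 9.02, 8.74, 8.07 and 8.23 on day 1 and 7.21, 7.16, 7.17, 7.01 and 6.86 on day 91, without overlap and with a change of -1.43 (SE 0.17, adjusted p = 2.80e-08). Rsad2 controls went from 9.61, 9.83, 9.57 and 9.74 to 8.23, 8.91, 8.24, 8.58 and 8.66. Here too all later arrays were lower, and the change was -1.16 (SE 0.19, adjusted p = 1.38e-05). Xaf1 controls were at 7.45, 7.70, 7.69 and 7.71 on day 1 and 6.33, 6.59, 6.81, 6.43 and 6.65 on day 91. Trim30a controls were at 7.04, 7.19, 6.98 and 7.02 and 6.11, 5.95, 5.91, 6.04 and 6.27 on those days. Neither gene's groups overlapped, and the changes were -1.07 (adjusted p = 1.92e-06) for Xaf1 and -1.001 (adjusted p = 1.01e-06) for Trim30a. Ifit2 went from 6.71, 7.34, 6.83 and 6.69 to 5.23, 5.45, 5.28, 5.37 and 5.02, a change of -1.62. Oasl2 went from 6.59, 6.55, 6.33 and 6.03 to 4.82, 5.11, 4.74, 5.31 and 5.30, a change of -1.32. Both were separate between the days, with the limit from the filter given above. Gbp3 changed by -1.002 (adjusted p = 0.00300). Calls of Igtp, Parp9, Gbp2, Oas2 and Dhx58 were lost in some fits that left out 1 array, and 23 to 26 genes were lower whichever array was left out.

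The fall in controls was uneven across roles. It was called in 3 of 3 sensors, 8 of 11 antiviral effectors, 4 of 4 of the other interferon-stimulated genes and 5 of 5 GTPases. It was called in 3 of 6 signalling genes, and 0 of the 4 immunoproteasome and transport genes passed. Psmb8, Psmb9 and Psmb10 differed between days 1 and 91 by -0.06 (adjusted p = 0.859), -0.03 (adjusted p = 0.941) and -0.001 (adjusted p = 0.996), and Tap1 by -0.12 (adjusted p = 0.711). Irf7, Stat2, Trim25 and Oasl1 also did not pass, at 0.01 (adjusted p = 0.950), 0.001 (adjusted p = 0.996), 0.001 (adjusted p = 0.994) and 0.04 (adjusted p = 0.886). The time course was not even either. At day 7, 3 genes were higher than at day 1 (18.9% of all genes) and 5 were lower (16.4%), with Irf7 at 0.71 (SE 0.14, adjusted p = 0.000324) and Eif2ak2 at -0.71 (SE 0.15, adjusted p = 0.000790). Calls at day 7 depended on single arrays: between 1 and 5 genes were higher and between 2 and 6 were lower when 1 array was left out. At day 28, 15 genes were lower (11.8%) and 0 higher (8.68%), with a median of -0.30; without control array 2 of day 1, 7 were lower. An F test over the 4 control groups called 30 of the 37 (66.0% of all genes). Counted from day 7 controls instead, 25 genes were lower at day 91 (20.0% of all genes) and 1 was higher (20.6%). Cell markers moved too: at day 91, 12 of 12 Kupffer cell markers (median -0.72), 8 of 8 endothelial markers (median -0.44) and 6 of 7 stellate cell markers (median -0.66) were lower. Of all genes, 16.6% were lower in day 91 controls than at day 1, and 20.0% lower than at day 7. The part of these cell types in the genes' fall was not tested.

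Many of the genes also declined in phenobarbital livers. From day 1 to day 91, 18 of the 37 genes fell in treated livers (28.0% of all genes) and 1, Oasl1, rose (21.1%). At day 28, 12 were lower (22.8%) and 1 higher (15.9%), while at day 7, 30 were higher (9.80%) and 0 lower (16.6%). By day 91, 16 genes were lower in both controls and treated livers, 10 were called in controls alone and 2 in treated livers alone, against 10.8%, 5.76% and 17.2% of all genes. A call in 1 arm alone does not show a difference between arms. The difference itself was called in 6 genes, against 11.1% of all genes in that direction, and in 0 in the other (19.4%). All 6 had the smaller fall, or none, under phenobarbital. Ifih1 changed by -0.74 in controls and -0.10 in treated livers, a difference of 0.65 (SE 0.14, adjusted p = 0.000993). Iigp1 changed by -0.78 and 0.25, a difference of 1.03 (SE 0.23, adjusted p = 0.00148). Iigp1, Trim30a, Eif2ak2 and Irf9 had started lower in treated livers at day 1, so both ends enter that difference. Usp18 fell by 1.55 in treated livers and by 1.90 in controls, and the difference did not pass.

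**Figure D5:**
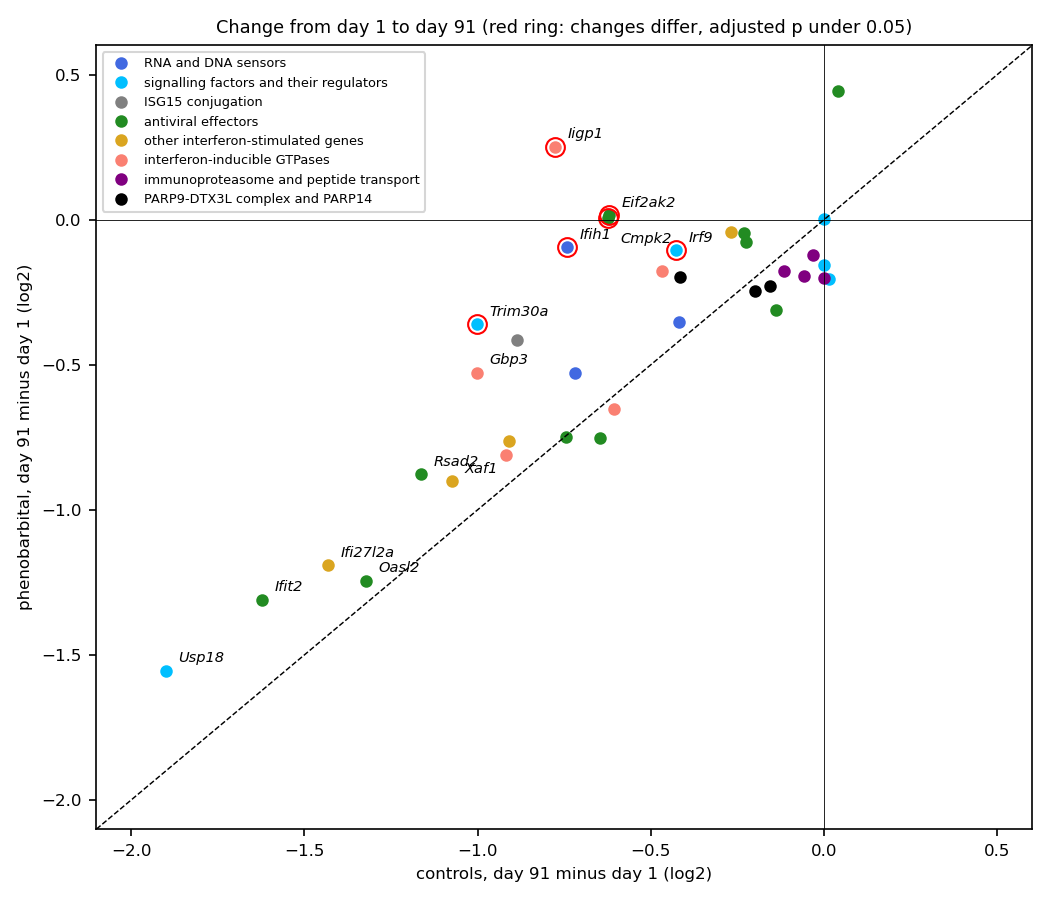
Change from day 1 to day 91 of each of the 37 genes in controls (horizontal axis, log2) and in phenobarbital livers (vertical axis, log2), coloured by role; the dashed line marks equal change and red rings mark the 6 genes whose changes differed at an adjusted p under 0.05. In value, 25 of the 37 points lie above the line; 23 of these fell in controls, and 20 of the 23 fell in treated livers too.

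Other genes of the pathway were read from lists drawn up for this purpose. Of 16 interferon ligand genes, 10 had a probe set, 2 passed the signal filter, and 0 were called with treatment at any time. Of 8 tested receptor and kinase genes, 5 were lower (16.7% of all genes) and 1 higher (15.8%) at day 1. The kinase Jak1 differed by -0.49 (SE 0.09, adjusted p = 0.000103) and the receptor chain Ifnar1 by -0.28 (SE 0.08, adjusted p = 0.00698), whereas the chain Ifnar2 differed by 0.24 (SE 0.07, adjusted p = 0.0108). At day 7, 1 of the 8 was higher (5.64% of all genes) and 1 lower (11.4%). Ikbke, a kinase that activates interferon-regulatory factors, was higher at all 4 times, by 0.42 (SE 0.12, adjusted p = 0.00817) at day 1, 0.43 (SE 0.11, adjusted p = 0.00866) at day 7, 0.81 (SE 0.11, adjusted p = 4.04e-06) at day 28 and 0.72 (SE 0.11, adjusted p = 3.53e-05) at day 91. Irf1, an early interferon gamma target, was not called at any time and differed by 0.36 (SE 0.16, adjusted p = 0.118) at day 7 and by 0.12 (adjusted p = 0.539) without array 3. Irf2, which competes with Irf1 for its site, was lower by -0.49 (SE 0.11, adjusted p = 0.000978) at day 1 and by -0.40 (SE 0.10, adjusted p = 0.00433) at day 28. Irf5, a factor of myeloid cells, was lower at days 1, 7 and 91, by -0.37 (SE 0.11, adjusted p = 0.0197) at day 7. Among 36 tested interferon-stimulated genes outside the 41, 7 were higher (5.64% of all genes) and 3 lower (11.4%) at day 7, with a median of 0.08. Without array 3, 4 were higher (5.41%) and 4 lower (11.2%), with a median of 0.03. Cxcl9 and Cxcl10, chemokines that draw T cells, were higher at day 7, Cxcl9 by 1.10 (SE 0.27, adjusted p = 0.00433) and Cxcl10 by 0.99 (SE 0.25, adjusted p = 0.00561). Cxcl10 did not pass at day 1 (0.58 (SE 0.26, adjusted p = 0.0875)), day 28 or day 91. Without array 3 the day 7 differences were 0.67 (adjusted p = 0.0127) for Cxcl9 and 0.60 (adjusted p = 0.0188) for Cxcl10. The 5 tested MHC class II genes had a median day 7 difference of 0.52 with and -0.11 without that array, with 0 called either way. Among 10 tested MHC class I and loading genes, 0 passed at day 7, and 1, lower, without array 3 (11.2% of all genes). B2m, the light chain of class I molecules, differed by 0.03 (SE 0.05, adjusted p = 0.708) at day 7 and was lower at day 1 by -0.18 (SE 0.05, adjusted p = 0.00931). Psmb5, Psmb6 and Psmb7, the constitutive subunits that immunoproteasome subunits replace, were higher at days 1 and 28. Their day 1 differences were 0.41 (SE 0.06, adjusted p = 1.87e-06) for Psmb5, 0.40 (SE 0.06, adjusted p = 2.49e-06) for Psmb6 and 0.70 (SE 0.17, adjusted p = 0.00163) for Psmb7. The immunoproteasome subunits themselves were not called at those times. In controls from day 1 to day 91, 17 of the 36 other interferon-stimulated genes were lower (16.6% of all genes) and 3 higher (19.7%), with a median of -0.25.

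Residual variation was shared among the genes. After each group's mean was removed, the median pairwise correlation among the 37 genes over 39 arrays was 0.33, against 0.014 over all tested genes; these genes share arrays, and the values are a description. Without array 3 it was 0.23. For the 4 immunoproteasome and transport genes it was 0.93 with and 0.59 without the array, and for the 5 GTPases 0.69 and 0.22. A further reading came from the 27 probe sets of 18 members that were not used. Of these, 6 were higher and 0 lower with treatment at day 7. At day 1, 1 was higher and 3 lower, at day 28, 2 and 4, and at day 91, 1 and 4. In controls, 0 were higher and 5 lower from day 1 to day 28, and 1 and 9 from day 1 to day 91. No share over all probe sets stands beside these counts, so they are a description.

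The 2 genes below the filter were read from a fit of every gene on the array. Mx1, the nuclear counterpart of Mx2, was at 4.84, 4.76, 5.03, 4.92 and 4.89 in day 7 controls and 5.26, 5.39, 5.40, 5.34 and 5.13 in treated arrays. These groups did not overlap, and the difference was 0.42 (SE 0.11, adjusted p = 0.00975). Its level was below the array median on all 39 arrays. In controls Mx1 changed by -0.44 (SE 0.12, adjusted p = 0.00463) from day 1 to day 91. Oas3, an oligoadenylate synthetase, differed by -0.02 (SE 0.10, adjusted p = 0.924) at day 7 and changed by -0.06 (SE 0.11, adjusted p = 0.697) in controls by day 91.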

How the data were processed

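Total RNA from whole liver was hybridised to 39 single-channel Affymetrix mouse arrays, per the labels' protocols. The submitters' processing notes name GCOS; how the signals were normalised is not stated in any source used here. The deposited values are log2 signals per probe set, used as deposited. Probe sets were named from the platform annotation; of 45101, 34945 had 1 gene symbol, 932 had several and 9160 had none outside controls. The probe set with the highest mean stood for a gene. With limma 3.58.1 in R 4.3.3, 1 mean per group was fitted over all 39 arrays (31 residual degrees of freedom), with eBayes and a trended prior, and p-values were adjusted by Benjamini-Hochberg over 12580 genes. The code was tested on simulated data. Alternatives covered scaling, filters, probe set choice, priors, covariates and leaving out each array. The genes and lists were chosen with earlier results of these data known. The rule for named genes took every member: up to 12 called members per comparison by smallest p, otherwise the 3 with the smallest p; values by array for the top 6 of both F tests and for most members in which day 7 phenobarbital array 3 lay apart (for other arrays that lay apart, that array's value alone); other pathway genes up to 4 per list, always Irf1, B2m and Cxcl10; and Cyp2b10 as the check of the labels. Space limited the lists' genes to those that bear on the members. Promoters are RefSeq sequences (GRCm38.p6).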

Additional observations from a re-analysis of the deposited data

Results flagged for a closer look

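Single arrays that stood apart within a group were looked for in 296 combinations of a gene and a group; in groups of this size chance marks about 1 in 20. There were 21, and 9 of them were array 3 of the day 7 phenobarbital group. On that array Gbp2 was at 10.27, Gbp3 at 10.62, Igtp at 13.05, Tap1 at 9.99, Psmb8 at 11.68, Psmb9 at 11.93, Psmb10 at 11.45, Bst2 at 12.06 and Stat2 at 7.97, each above the other 4. The nearest of those was at 11.59 for Bst2 and 7.60 for Stat2, smaller gaps than for the other genes named. The remaining 12 were spread over 11 arrays. Low values were Stat2 at 7.12 on day 1 phenobarbital array 1, Stat2 at 7.58 on day 28 phenobarbital array 3, Irf7 at 7.75 on day 91 phenobarbital array 5, Ifit3 at 8.65 on day 7 phenobarbital array 1, Xaf1 at 7.45 on day 1 control array 1, Rtp4 at 8.56 on day 91 control array 1, Gbp2 at 5.79 on day 91 phenobarbital array 3 and Irgm1 at 9.08 on day 28 control array 3. High values were Ifit1 at 7.74 on day 28 phenobarbital array 3, Eif2ak2 at 7.25 on day 1 phenobarbital array 5, Xaf1 at 8.15 on day 7 control array 3 and Tap1 at 8.20 on day 7 control array 1.

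The treatment difference changed over the 4 days in 18 genes by the F test, against 35.1% of all genes. Their adjusted p-values (limma) were 0.000158 for Iigp1, 0.000376 for Ifih1, 0.000517 for Trim25, 0.00154 for Herc6, 0.00266 for Cmpk2, 0.00351 for Ifit3, 0.00371 for Parp14, 0.00481 for Ifi35, 0.00559 for Rtp4, 0.00617 for Eif2ak2, 0.00900 for Ifit1, 0.0116 for Irgm1, 0.0141 for Xaf1, 0.0183 for Irf9, 0.0214 for Trim30a, 0.0242 for Gbp3, 0.0263 for Ifi27l2a and 0.0393 for Bst2.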

How the results depend on the processing

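Of 143 calls of single genes, 74 held in every alternative other than leaving out arrays, and 98 whichever array was left out. One value changed sign: Ifih1 in controls at day 7, at 0.0077 with the spike-in mean as covariate. Counts of genes called moved by over 1.5 times as follows. At day 1, 1 gene was higher with phenobarbital under quantile normalisation, median centring, array weights, the neutrophil covariate, both settings without day 7 phenobarbital array 3 (chosen after seeing the data) and without shared-transcript probe sets; the last gave 2 lower. At day 7, fitting only the groups compared gave 11 higher. At day 28, quantile normalisation gave 5 higher and 3 lower, median centring 3 lower, the spike-in covariate 1 higher and 2 lower, and the 3′ minus 5′ covariate 0 higher and 1 lower. At day 91, 2 were lower with the mean of all probe sets, array weights or array 3 left out of the shared spread, and 0 without shared-transcript probe sets. In controls at day 7, 5 were higher after quantile normalisation, 6 with array weights, 0 with the spike-in and 1 with the 3′ minus 5′ covariate, and 7 in both settings without array 3; 3 were lower with the stricter filter, without shared-transcript probe sets, within the groups compared or with the 3′ minus 5′ covariate, and 0 with the spike-in covariate. The neutrophil covariate gave 1 higher and 8 lower in controls at day 28, 2 higher at day 91, and 6 and 2 higher in treated livers at days 28 and 91. Counted from day 7, also chosen after seeing the data, 1 gene was higher in day 91 controls. With the spike-in covariate the F test of treatment by time called 9. The cause of these shifts was not tested.

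Leaving out 1 array gave ranges of genes higher and lower. Treatment gave 0 to 1 and 3 to 5 at day 1, 14 to 24 and 0 to 1 at day 7, 1 to 3 and 3 to 5 at day 28, and 3 to 4 and 1 at day 91. Controls gave 1 to 5 and 2 to 6 at day 7, 0 and 7 to 15 at day 28, and 0 and 23 to 26 at day 91. Treated livers gave 25 to 32 and 0 at day 7, 0 to 1 and 8 to 16 at day 28, and 0 to 1 and 13 to 18 at day 91. The F tests called 17 to 22 genes for treatment by time and 28 to 31 for time in controls. No paired analysis was possible because the labels carry no replicate numbers.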
